A study of Mus musculus with 7 samples.

Results

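Elastic fibre genes were examined in the carotid artery of mice that carried 1 null allele of Apoe and were born from reciprocal crosses. The members were 10 genes given by name: Eln, Fbn1, Fbln1, Fbln2, Fbln5, Lox, Loxl1, Mfap4, Mfap5 and Emilin1. Every probe set that the annotation of the Mouse 430 2.0 array assigns to exactly 1 of these symbols was used, which gave 19 probe sets for 9 of the 10 genes, out of 18194 genes with such a probe set. Fbn1, which encodes the microfibril protein fibrillin-1, had no probe set under this rule and was not analysed here. Of the 19 probe sets, 18 had a mean signal above 23.6, the 40th percentile, and all 9 genes kept at least 1 of them.

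The arrays came from 7 samples of carotid artery, all from offspring of the genotype ApoE-/+. The wild-type mother group held 3 arrays, from crosses of a normocholesterolemic wild-type mother with an ApoE-/- father. The ApoE-null mother group held 4, from crosses of a hypercholesterolemic ApoE-/- mother with a wild-type father. The labels give no diet, sex, age, strain or litter, and do not say whether an array holds RNA of 1 animal or of several, so p-values measure the spread between these samples, which may be technical. Since mother and father changed places between the crosses, maternal and paternal effects cannot be told apart. The study asked whether the cholesterol of a parent bears on how prone the offspring are to atherosclerosis.

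Elastic fibres let a large artery stretch with each heartbeat and recoil. Smooth muscle cells and fibroblasts secrete tropoelastin, the product of Eln, which gathers on a scaffold of fibrillin microfibrils with the help of fibulins and is then crosslinked by lysyl oxidases into insoluble elastin. In the mouse, most arterial elastin is laid down before and soon after birth, and it turns over very slowly in the adult.

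Of the 9 measured genes, 7 had a lower mean log2 signal with an ApoE-null mother, against 51.2% of all genes, and 2 a higher one, and 0 passed the test (limma, adjusted p = 0.459 to 0.965), where 0.00787% of all 12707 genes were called. The median log2 difference between crosses, signed so that negative means lower with an ApoE-null mother, was -0.17 over the 9 genes and -0.01 over all genes. It was -0.30 without ApoE-null mother 4 and -0.09 without ApoE-null mother 2, and -0.32 with array weights. Without adjustment, Eln, Loxl1 and Mfap5 had a p under 0.05 with lower signals, 3 of 9 genes against a background of 4.22%, and 0 were higher, against 4.43%. The groups did not overlap for Eln and Mfap5, 2 of 9 genes where 4.23% of all genes were lower without overlap, and 0 members were higher without overlap, where 4.34% of all genes were. The 3 genes became 1 when wild-type mother 2 or ApoE-null mother 3 was left out. The members were chosen with earlier results of these data known, so their counts beside these backgrounds are descriptions only. Signals are MAS5 values, a linear intensity per probe set, and differences are on the log2(signal + 2) scale. Signals of different probe sets are not comparable as levels of their genes.

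**Figure D1:**
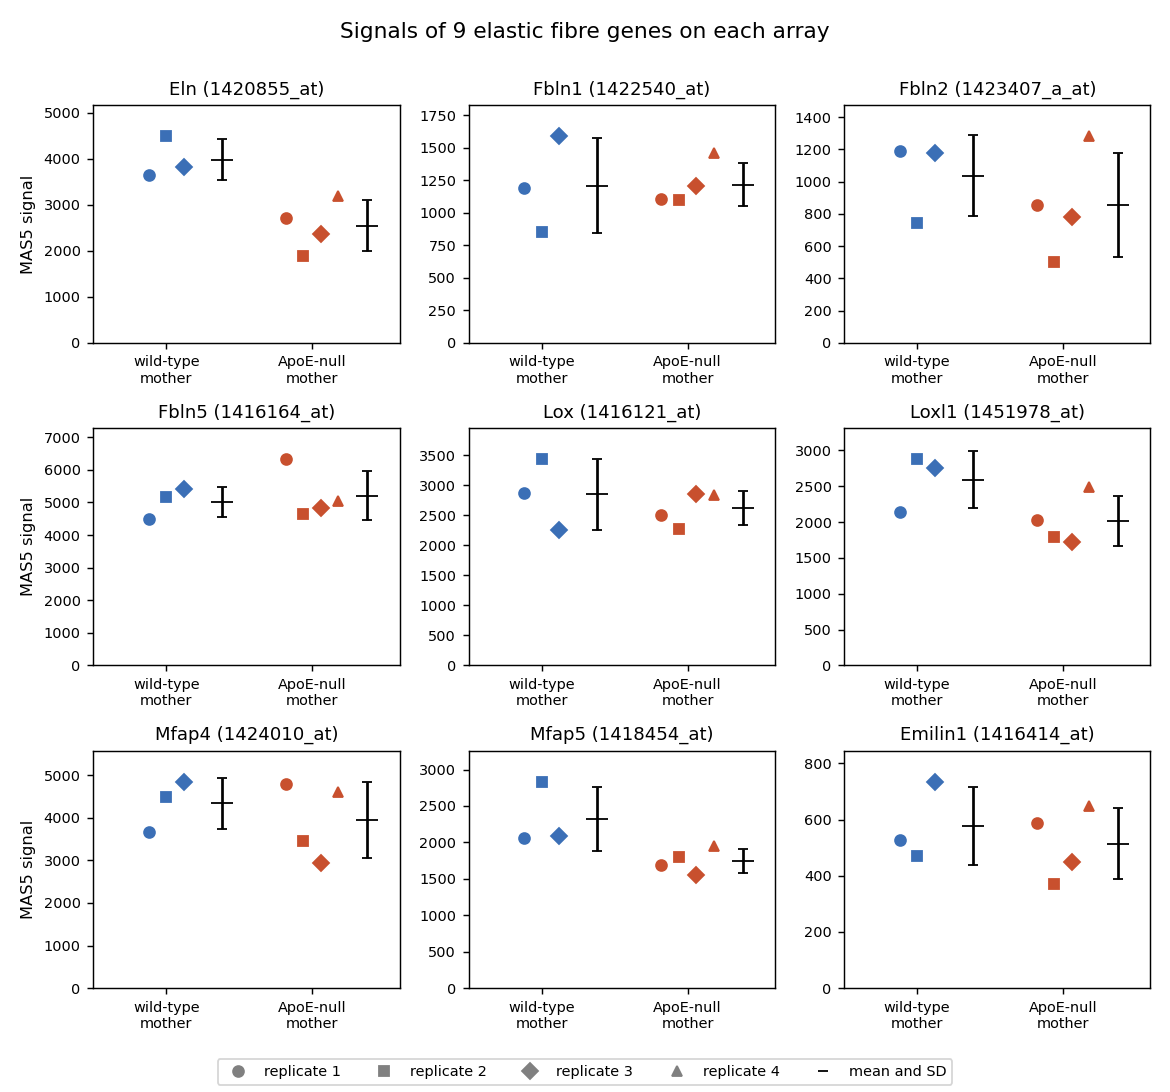
MAS5 signal of the probe set with the highest mean signal for each of 9 elastic fibre genes, by cross, with a marker shape for each replicate and the mean and SD beside the points (3 wild-type mother and 4 ApoE-null mother arrays). The groups are apart for Eln and Mfap5 and overlap for the other 7 genes.

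Eln encodes the elastic polymer itself. Its stronger probe set, 1420855_at, had signals of 3654.1, 4490.1 and 3818.4 on the wild-type mother arrays and of 2721.1, 1895.7, 2363.8 and 3204.6 on the ApoE-null mother arrays. Every ApoE-null mother array lay below every wild-type mother array, and the gap between the closest pair was smaller than the range within the ApoE-null mother group. The means were 3990 ± 443 (SD, n = 3) and 2550 ± 554 (SD, n = 4), a log2 difference of -0.67 with a standard error of 0.17 and a 95% interval of -1.05 to -0.29, or 0.63-fold (limma, adjusted p = 0.459). Eln did not pass over all probe sets. When single arrays were left out the difference was -0.79 to -0.53, and no alternative gave a call (limma, adjusted p = 0.246 to 0.871).

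A second Eln probe set, 1420854_at, is annotated to the same sequence record and was much dimmer. It had signals of 112.3, 56.4 and 154.4 in the wild-type mother group, against 47.8, 13.2, 31.7 and 108.0 in the ApoE-null mother group. Here the groups overlapped, because ApoE-null mother 4 lay above wild-type mother 2. The log2 difference was -1.31 (standard error 0.56; limma, adjusted p = 0.598), and the array of ApoE-null mother 2 was below the highest of 27 probe sets for bacterial transcripts, which serve as background. Both probe sets ordered the 4 ApoE-null mother arrays alike, with replicate 4 highest, then 1, 3 and 2. They ordered the wild-type mother arrays differently, since wild-type mother 2 was the highest on the first and the lowest on the second.

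The lysyl oxidases oxidise lysine side chains of tropoelastin and collagen so that crosslinks can form. Loxl1, which acts on elastin in adult tissue, had signals of 2144.3, 2878.0 and 2754.8 in the wild-type mother group, against 2028.5, 1792.5, 1721.5 and 2492.5 in the ApoE-null mother group (probe set 1451978_at). The groups overlapped only through wild-type mother 1 and ApoE-null mother 4. The log2 difference was -0.37 (standard error 0.16; limma, adjusted p = 0.598). The second probe set of Loxl1, 1436063_at, gave 201.4, 252.3 and 206.5 against 146.4, 124.8, 110.0 and 211.3. Only ApoE-null mother 4 reached the other group there, and the log2 difference was -0.60 (standard error 0.22; limma, adjusted p = 0.551). The sign held on both probe sets under all alternatives that were run.

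Lox, the founding member of that family, gave differing values on its probe sets. Probe set 1416121_at had signals of 2870.7, 3435.2 and 2250.4 in the wild-type mother group, against 2502.2, 2267.5, 2847.5 and 2841.1 in the ApoE-null mother group. The wild-type mother arrays held both the highest and the lowest value of the 7, and the log2 difference was -0.11 (95% interval -0.46 to 0.24; limma, adjusted p = 0.873). Probe set 1448228_at is annotated to the same sequence record and had a log2 difference of -0.49 (95% interval -1.08 to 0.11; limma, adjusted p = 0.662). Its signals were 458.6, 312.1 and 228.8 against 205.4, 168.3, 226.1 and 342.9, so wild-type mother 1 stood highest, where it ranked second on the first probe set. The third probe set, 1437903_at, had a mean signal of 17.2, did not pass the filter, and lay at or below the bacterial background on 3 of 4 ApoE-null mother arrays.

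Among the microfibril-associated genes, Mfap5 encodes MAGP-2, a small glycoprotein that binds fibrillin. Its probe set 1418454_at had signals of 2056.8, 2832.2 and 2090.1 in the wild-type mother group, against 1686.5, 1796.0, 1548.4 and 1947.9 in the ApoE-null mother group. The groups did not overlap, but ApoE-null mother 4 came close to wild-type mother 1. The means were 2330 ± 438 (SD, n = 3) and 1740 ± 169 (SD, n = 4), a log2 difference of -0.40 (standard error 0.15; limma, adjusted p = 0.551). It was -0.25 without wild-type mother 2, which had the highest signal. The other probe set, 1449082_at, overlapped between groups, at 1911.8, 2009.4 and 2335.3 against 1558.1, 1737.9, 1529.8 and 2030.3, with a log2 difference of -0.29 (limma, adjusted p = 0.630).

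Mfap4 encodes a fibrinogen-like glycoprotein that binds elastin and microfibrils. Its single probe set had signals of 3669.9, 4499.6 and 4847.3 in the wild-type mother group, against 4799.8, 3463.7, 2933.7 and 4602.0 in the ApoE-null mother group. Replicates 1 and 4 of the ApoE-null mother group lay among the wild-type mother arrays and replicates 2 and 3 below all of them. The log2 difference was -0.15 (95% interval -0.55 to 0.24; limma, adjusted p = 0.840).

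The fibulins link tropoelastin to microfibrils, to cells and to the lysyl oxidases. Fbln5, which is needed for elastic fibre assembly in mice, had signals of 4502.2, 5151.7 and 5407.1 in the wild-type mother group, against 6330.0, 4649.9, 4821.0 and 5048.9 in the ApoE-null mother group. ApoE-null mother 1 was the highest of the 7 arrays, and the other ApoE-null mother arrays lay within the range of the other cross. The log2 difference was 0.05 with an interval of -0.25 to 0.34, so a shift of the size measured for Eln was outside the interval of Fbln5 (limma, adjusted p = 0.945). The weaker probe set 1446377_at had a log2 difference of -0.10 (limma, adjusted p = 0.925).

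Fbln1, a fibulin of basement membranes and elastic fibres, had signals of 1188.7, 851.9 and 1586.5 in the wild-type mother group, against 1106.6, 1097.7, 1201.6 and 1456.1 in the ApoE-null mother group. The ApoE-null mother arrays lay inside the range of the other group, and the log2 difference was 0.04 (95% interval -0.39 to 0.48; limma, adjusted p = 0.965). Its other probe sets, 1439688_at and 1451119_a_at, had log2 differences of -0.14 and -0.19 (limma, adjusted p = 0.882 and 0.846). The sign of Fbln1 thus differed between probe sets, with intervals that all included 0.

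Fbln2, found in the inner elastic layer of arteries and around developing vessels, had signals of 1186.3, 744.4 and 1177.8 in the wild-type mother group, against 856.2, 501.1, 781.5 and 1279.7 in the ApoE-null mother group. ApoE-null mother 4 was the highest of all 7 arrays and ApoE-null mother 2 the lowest, the widest spread of any member's main probe set within that group. The coefficient of variation there was 37.7%, and the log2 difference was -0.32 (95% interval -0.93 to 0.29; limma, adjusted p = 0.773). The other probe set, 1438375_at, had a log2 difference of 1.24 (95% interval -0.31 to 2.79; limma, adjusted p = 0.669), from signals of 1.7 to 58.1 that reached the bacterial background on 1 array of each group.

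Emilin1 encodes a glycoprotein at the interface of elastin and microfibrils that also limits TGF-beta processing. Its main probe set had signals of 526.3, 471.3 and 734.6 in the wild-type mother group, against 586.0, 372.0, 449.4 and 649.7 in the ApoE-null mother group. The groups overlapped widely, with a log2 difference of -0.17 (95% interval -0.66 to 0.31; limma, adjusted p = 0.852). The dim probe set 1431834_a_at had a log2 difference of -0.39 (limma, adjusted p = 0.863).

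**Figure D2:**
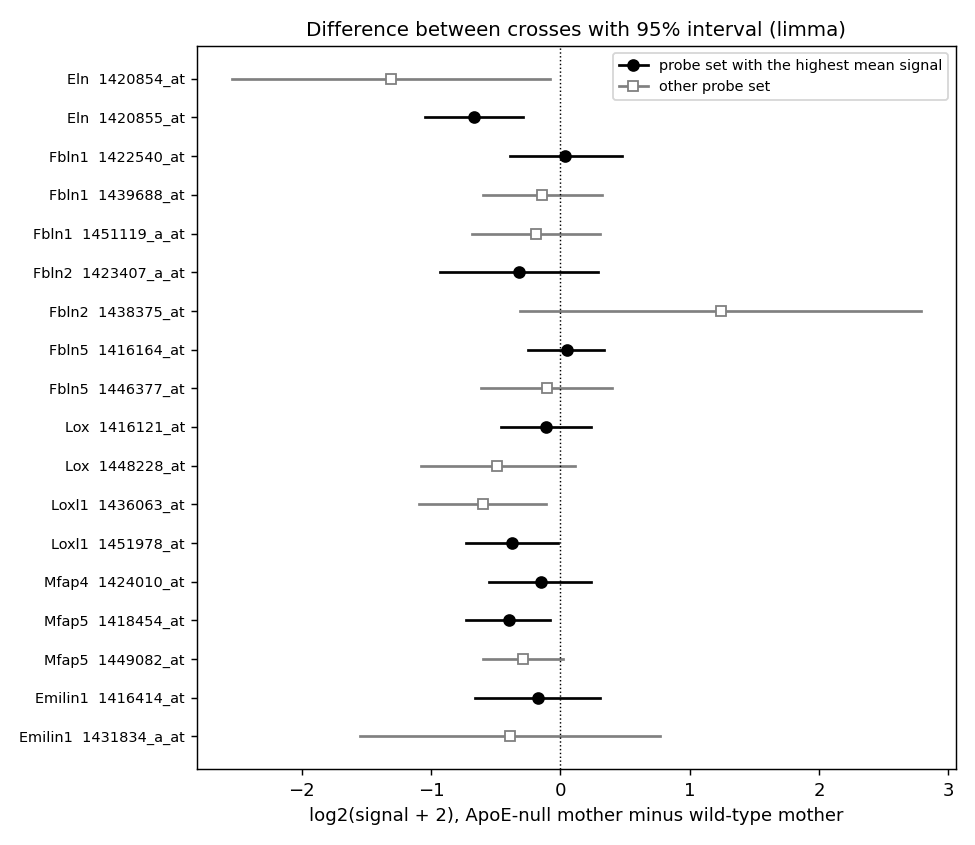
Log2 difference of each of 18 probe sets (negative is lower with an ApoE-null mother), drawn with its 95% interval from limma; filled points are the probe set with the highest mean signal of each gene. Of the 18 probe sets 15 lie below 0, and the intervals of both Eln probe sets, both Loxl1 probe sets and 1 Mfap5 probe set do not reach 0 before adjustment.

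Over probe sets instead of genes, 15 of 18 had a lower log2 signal with an ApoE-null mother, against 50.6% of all, and 0 were called in limma, with 0.00370% called among all 27013 probe sets. At an unadjusted p under 0.05, 5 of the 18 were lower, against a background of 3.95%, and 2 were lower without overlap, against 4.01%. Those 5 belong to Eln, Loxl1 and Mfap5 only, and probe sets of 1 gene measure the same RNA, so they are not separate observations. As for the genes, the members were chosen with earlier results known, so these counts are descriptions only.

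The members also varied within the groups, and many of them did so on the same arrays. ApoE-null mother 4 lay above its group mean for 8 of 9 genes, with a median log2 deviation of 0.27, and Fbln5 was the exception. ApoE-null mother 2 lay below it for 8 genes, all but Mfap5, and ApoE-null mother 3 for 8 genes, all but Lox. Among the wild-type mother arrays replicate 1 was below its group mean for 6 genes, and replicates 2 and 3 were each above it for 6. Replicate 2 had the highest signal of all 7 arrays for Eln, Lox, Loxl1 and Mfap5, and the lowest for Fbln1. The counts per array were not set beside the same counts over all genes, so the pattern may not be particular to the members.

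**Figure D3:**
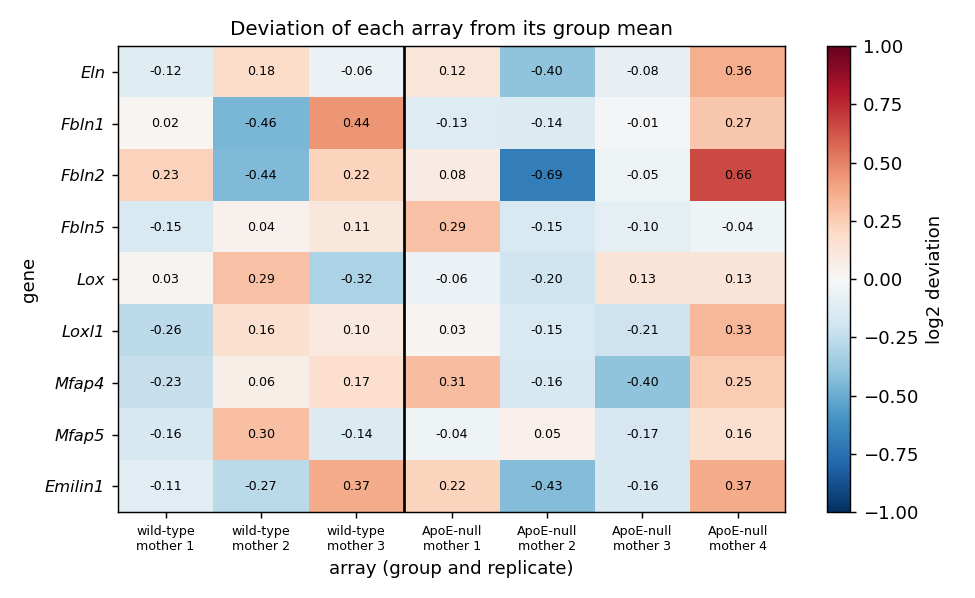
Log2 deviation of each array from the mean of its own group, for the main probe set of 9 elastic fibre genes, with the value printed in each cell. ApoE-null mother 4 is above its group mean for 8 genes and ApoE-null mother 2 below it for 8, while wild-type mother 2 is above for 6 genes and below for Fbln1, Fbln2 and Emilin1.

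Across the 7 arrays 4 of the 36 pairs of members had an r above 0.8. The Pearson correlation of log2 signals was 0.89 for Eln and Loxl1, 0.84 for Loxl1 and Mfap5 and 0.81 for Eln and Mfap5, and Spearman's rho was 0.93, 0.93 and 0.89. These 3 genes are those with the lowest unadjusted p, so part of the correlation is the difference between crosses, and with each group centred on its mean r was 0.80, 0.68 and 0.49. Fbln2 and Emilin1 had r = 0.87 and rho = 0.79, and r = 0.86 with centred groups. Without the 2 arrays farthest from the median of the first-named gene, r was 0.84, 0.73, 0.99 and 0.69 for these 4 pairs. Fbln1 and Lox had the lowest value, r = -0.56, but r was 0.66 without the 2 arrays farthest from the median of Fbln1, so the negative value rests on those arrays. The median over all 36 pairs was 0.46. These values are descriptions over 7 arrays that share RNA quality and scaling within each array, with no test.

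Signals of some members moved with a measure of RNA integrity. The ratio of 3 prime to 5 prime Actb signal, which rises when long cDNA is lost in degradation or amplification, was 3.21, 6.71 and 2.17 on the wild-type mother arrays and 3.02, 5.23, 3.18 and 2.61 on the ApoE-null mother arrays. Log2 signals had a Pearson correlation with the log2 ratio of -0.91 for Fbln1, -0.75 for Fbln2 and -0.78 for Emilin1, and Spearman's rho was -0.89, -0.68 and -0.82. Without the 2 arrays farthest from the median ratio r was -0.92, -0.54 and -0.90. For Eln, Loxl1 and Mfap5 it was -0.05, -0.03 and 0.47 over all 7 arrays, and -0.58, -0.88 and -0.57 without those 2, wild-type mother 2 and ApoE-null mother 2. On the other probe set of each of these genes r was -0.61, 0.04 and -0.19 over all arrays. Without those 2 arrays it was -0.68, -0.57 and -0.83. Lox had a positive r, 0.45 over all arrays and 0.73 without those 2. Mfap4 had r = -0.22 and Fbln5 r = -0.26, and -0.66 and -0.25 without them. With the log2 ratio as a covariate, an alternative added after the data were seen, the log2 differences of Eln, Loxl1 and Mfap5 were -0.68, -0.38 and -0.39. Fbln1 went from 0.04 to 0, Fbln2 from -0.32 to -0.38, Emilin1 from -0.17 to -0.22 and the median over members from -0.17 to -0.22. The part of the ratio in the spread of the members within groups was not tested.

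**Figure D4:**
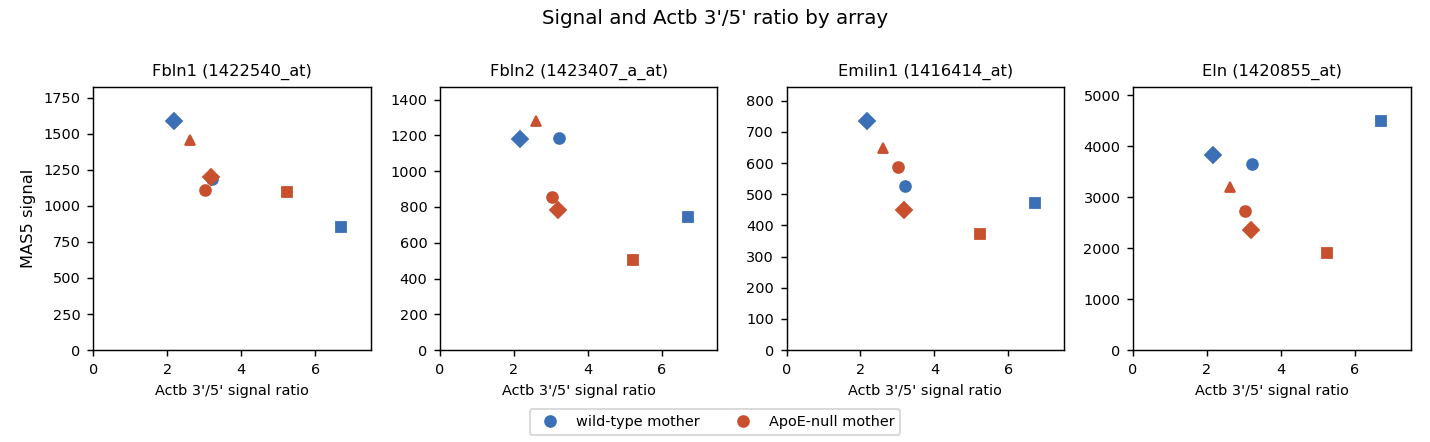
MAS5 signal of Fbln1, Fbln2, Emilin1 and Eln against the ratio of 3 prime to 5 prime Actb signal on the same array, coloured by cross, with marker shapes for replicates 1 to 4 as circle, square, diamond and triangle. Fbln1, Fbln2 and Emilin1 are lower on arrays with a high ratio, while Eln was highest, at 4490.1, on the array with the highest ratio, 6.71.

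The array of wild-type mother 2 stood apart from the others. It had the highest 3 prime to 5 prime ratios of Actb and of Gapdh (7.80, against 5.03 to 6.56 elsewhere), and a Xist signal of 41.2 where the other arrays had 5174.1 to 5930.9. The summed signal of 7 of 7 skeletal muscle markers was 2109 on it and 144 to 247 on the other arrays. The part of these in the members' values was not tested, but the log2 differences without that array were -0.58 for Eln, -0.29 for Loxl1 and -0.25 for Mfap5. The 2% trimmed mean differed by at most 0.343% between arrays, and median signals were 36.0 to 42.1.

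Markers of the cells that make elastic fibres overlapped between the crosses in their summed signals. Of 10 smooth muscle markers 10 were measured and 0 passed the test in limma, 0 also at an unadjusted p under 0.05, but 8 of 10 were lower, with a median log2 difference of -0.07 and summed signals per array of 38994 to 50236 in the wild-type mother group and of 41114 to 50448 in the other. Acta2 and Myh11, which define contractile smooth muscle, had signals of 9491.8 to 13536.0 and 4449.5 to 6050.5 over the 7 arrays. Of 8 adventitial fibroblast markers 8 were measured and 0 passed in limma, likewise 0 without adjustment, with a median of -0.01 and summed signals of 34183 to 39186 and 33388 to 40263. With the smooth muscle score as a covariate the log2 differences of Eln, Loxl1 and Mfap5 were -0.60, -0.30 and -0.38, and with the fibroblast score, added after the data were seen, -0.70, -0.41 and -0.42. The smooth muscle score had a Pearson correlation over the 7 arrays of 0.94 with Mfap4, 0.81 with Fbln5 and 0.81 with Emilin1. It was 0.73 with Loxl1, 0.56 with Eln, 0.47 with Fbln2, 0.34 with Mfap5, 0.25 with Fbln1 and -0.07 with Lox. For the fibroblast score the values of Mfap4, Fbln5 and Emilin1 were 0.90, 0.72 and 0.66. Those of Loxl1, Eln, Fbln2, Mfap5, Fbln1 and Lox were 0.50, 0.22, 0.33, 0.14, 0.30 and -0.28. With the smooth muscle score as a covariate Mfap4 went from -0.15 to -0.05, Emilin1 from -0.17 to -0.07 and Fbln5 from 0.05 to 0.11. The median over the 9 genes went from -0.17 to -0.12. With the fibroblast score instead, Mfap4 was at -0.21, Emilin1 at -0.22, Fbln5 at 0.02 and the median at -0.22. In such bulk samples, fewer cells of a type and less RNA per cell cannot be told apart.

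Some markers of other tissues had larger differences in level between the crosses than the members, without passing the test. Thymocyte markers, with 5 of 7 measured, had summed signals of 132 to 210 in the wild-type mother group and of 411 to 699 in the other. Their median log2 difference was 3.01, and 4 of 5 were higher at an unadjusted p under 0.05, against 4.43% of all genes. Rag1, Dntt and Ccr9 had wild-type mother means of 19.8, 16.8 and 9, below the filter of 23.6. They passed it only through the ApoE-null mother group. These 3 genes lay at or below the bacterial background on 1, 2 and 2 of 3 wild-type mother arrays. The thymocyte count and the size of the difference are therefore descriptions only. Adipocyte markers, with 4 of 5 measured, had a median of 0.27 and sums of 7236 to 18018 and of 15069 to 21005. Among them the brown fat gene Ucp1 did not overlap between groups, at a log2 difference of 1.88, where 4.34% of all genes were higher without overlap. Adipoq, Cidec and Fabp4 overlapped, at 0.10, 0.11 and 0.42. Schwann cell markers (4 of 6 measured) had a median of -1.13 and sums of 1424 to 4720 against 665 to 2495, and neuron and glomus cell markers (6 of 6) had a median of -0.80 and sums of 374 to 3362 against 410 to 1164. Skeletal muscle markers (7 of 7) had a median of -1.5 and sums of 214 to 2109 against 144 to 211, the highest from wild-type mother 2. With an ApoE-null mother, Acta1, Tnnt3, Tnnc2 and Myh4 averaged 19.6, 19.8, 15.2 and 3.52, below the filter of 23.6. Their signals in that cross did not exceed the bacterial background in 2, 1, 2 and 4 samples. For Myh4 the same held in 2 wild-type mother samples. The size of the skeletal muscle median is therefore a description only. Endothelial and macrophage markers had medians of 0.09 and 0.12, with endothelial genes from -0.29 (Cdh5) to 0.49 (Tek). Of all these markers 0 passed the test in limma (smallest adjusted p = 0.0901), and their part in the members' values was not tested.

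Cartilage also makes matrix, and of its 7 markers only Acan and Comp passed the filter on low signal. Col2a1, Matn1, Matn3, Col9a1 and Col11a2 did not pass it. Comp, which smooth muscle expresses too, had signals of 736.9, 723.0 and 959.6 in the wild-type mother group, against 507.7, 666.9, 479.7 and 812.3 in the ApoE-null mother group. ApoE-null mother 4 was again the highest of its group. The log2 difference was -0.41 for Comp (limma, adjusted p = 0.628) and 0.08 for Acan (limma, adjusted p = 0.957). For Acan, ApoE-null mother 4 was the lowest of its group, at 47.6.

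Other genes of elastic fibre assembly and turnover were read from 8 lists with 43 genes, of which 35 were measured. Of these 0 passed the test (limma, smallest adjusted p = 0.599), 20 had lower and 15 higher log2 signals with an ApoE-null mother, and the median log2 difference was -0.05. At an unadjusted p under 0.05, 1 of 35 was lower, against 4.22% of all genes, and 0 were higher, against 4.43%. The 1 gene was Bmp1, the protease that cuts the propeptide from lysyl oxidase, with 436.3, 355.1 and 485.5 against 258.8, 266.3, 267.2 and 444.9. The first 3 ApoE-null mother arrays lay below every wild-type mother array, while replicate 4 lay among them, and the log2 difference was -0.49 (standard error 0.21; limma, adjusted p = 0.599).

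The list of other lysyl oxidases and their supply had 4 measured genes. Beside Bmp1, the lysyl oxidase genes Loxl3 and Loxl4 were lower, at log2 differences of -0.26 and -0.24, and Atp7a, a copper transporter gene, was higher at 0.11, all without passing. Mfap2, which encodes MAGP-1, the close relative of the Mfap5 product, had signals of 476.2, 465.9 and 449.3 in the wild-type mother group, against 330.9, 307.9, 360.7 and 489.9 in the ApoE-null mother group. ApoE-null mother 4 was the highest of the 7 and the other 3 were the lowest, with a log2 difference of -0.34 (limma, adjusted p = 0.642). The latent TGF-beta binding proteins, which anchor TGF-beta on microfibrils, were close to 0, with Ltbp3 at 0.07, and the list with Mfap2 had a median of 0.01 over 5 genes. Efemp1, which encodes fibulin-3, and Hmcn1 had log2 differences of -0.23 and 0.22 in a list with a median of 0.06 over 3 genes.

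Adamtsl4, an ADAMTS-like protein that binds fibrillin-1, had signals of 268.1, 227.6 and 277.1 in the wild-type mother group, against 205.6, 196.1, 210.7 and 207.3 in the ApoE-null mother group. It was the 1 gene of the 35 whose groups did not overlap, no more than the background of 4.23% lower and 4.34% higher, and its log2 difference was -0.32 (limma, adjusted p = 0.610). Adamtsl3 was at -0.23, and the list had a median of -0.04 over 6 genes. Mmrn2 and Emilin2, of the EMILIN family, were at 0.10 and -0.17, with a median of 0.10 over 3 genes.

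The enzymes that degrade elastin had a median log2 difference of -0.07 over 6 measured genes, 4 lower and 2 higher, with the cathepsin gene Ctsl at -0.09 and the pancreatic-type elastase gene Cela1 at -0.15. Mmp12 and Elane, the macrophage and neutrophil elastases, did not pass the filter on low signal. The elastin receptor complex had 3 of 3 genes lower, with Ctsa at -0.16, Glb1 at -0.11 and a median of -0.14. Tgfb2 was at -0.39 and Tgfb3 at -0.07 in a list of TGF-beta ligands and receptors with a median of 0.05 over 5 genes. None of these passed (limma, adjusted p = 0.720 or above in these 3 lists).

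The genes outside the group whose log2 signals over the 7 arrays were most like those of Eln were Bzw2, Smarcb1, Slc39a13, Rpn1 and Vps45, with Pearson r of 0.982, 0.981, 0.977, 0.975 and 0.973 and Spearman's rho of 1, 1, 0.96, 0.96 and 1. Slc39a13, a zinc transporter gene, had signals of 137.8, 165.5 and 148.8 in the wild-type mother group, against 109.8, 78.7, 111.1 and 127.8 in the ApoE-null mother group. Like Eln, it was lower on every ApoE-null mother array and lowest on replicate 2, which follows from its choice by correlation with Eln. Over 7 arrays, 136 genes outside the group, or 1.07% of all, had an r above 0.9 with Eln, and the median r over all genes was 0.01. No test was made.

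RefSeq promoter windows of build GRCm38.p6, from 250 bases before to 50 bases after a start site, matched 5 of the 10 genes: Fbn1, Fbln1, Fbln2, Fbln5 and Emilin1. Those of Fbln2 (chr6:91212514-91212813, plus strand) and Emilin1 (chr5:30913536-30913835, plus strand) are shown because the signals of these genes followed each other most closely within the groups. The RefSeq span of Fbln2 starts at 91212460 and that of Emilin1 at 30913387. Both windows therefore lie downstream of the outermost start of the gene. Capitals mark matches on either strand to GGGCGG, the GC box, or to CCAAT.
Fbln2: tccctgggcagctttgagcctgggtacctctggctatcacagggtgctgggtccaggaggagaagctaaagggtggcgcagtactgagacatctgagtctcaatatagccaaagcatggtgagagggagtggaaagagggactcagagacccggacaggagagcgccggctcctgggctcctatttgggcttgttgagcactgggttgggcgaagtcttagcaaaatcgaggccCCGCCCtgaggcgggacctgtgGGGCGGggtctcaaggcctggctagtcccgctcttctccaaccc
Emilin1: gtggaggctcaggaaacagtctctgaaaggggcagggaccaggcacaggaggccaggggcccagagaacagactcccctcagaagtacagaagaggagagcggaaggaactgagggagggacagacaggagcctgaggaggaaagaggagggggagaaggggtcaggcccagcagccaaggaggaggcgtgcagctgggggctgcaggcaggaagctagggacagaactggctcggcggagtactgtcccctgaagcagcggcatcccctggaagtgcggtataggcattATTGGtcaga
The Fbln2 window held 2 GC boxes and no CCAAT, and the Emilin1 window 1 CCAAT match, read on the minus strand, and no GC box. Among all 32851 such windows, 35.7% held GGGCGG and 37.4% held CCAAT. Neither window held TATAAA, found in 13.6% of all, or the CArG box, the site of serum response factor found in 1.63%. A match is only a match of letters in this window.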

How the data were processed

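RNA from 7 carotid artery samples was amplified in 2 cycles with an oligo-dT primer and hybridised to Mouse 430 2.0 arrays, per the labels' protocols. The authors deposited MAS5 signals, which give a linear intensity for each probe set. The submitters' processing notes name GCOS as the software, with versions not given in the sources used here. Trimmed means differed by 0.343%, so the scaling was kept. The members and lists were chosen with earlier results of these data known. Groups follow the labelled cross, and replicate numbers follow the order of deposit and pair nothing. Of 45101 probe sets, the platform annotation gives 34958 a single symbol, 932 several and 9211 none. The 64 control probe sets were dropped, as were those with a mean signal at or below 23.6 (the 40th percentile), leaving 27013. Values of log2(signal + 2) were fitted in limma 3.58.1 (R 4.3.3; lmFit, then eBayes with trend), without covariates. P-values were adjusted by Benjamini-Hochberg over all 27013 probe sets, with a threshold of 0.05 and 95% intervals. Each of 12707 genes was read from its brightest kept probe set. The fit was tested on simulated data. The number of arrays limits the precision. Named were all members, the 5 genes most correlated with Eln (predicted and clone names left out), the 2 genes with the smallest p in each pathway list, and marker genes where a result turned on them. Comp was chosen after its values were seen. Alternatives changed the scaling, pseudocount, filter, trend, weights, probe set choice, covariates and the arrays included.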

Additional observations from a re-analysis of the deposited data

How the results depend on the processing

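The count of called members was 0 under every alternative run, as was that of called genes in the other pathway lists. Of 18 probe sets, 10 kept their sign throughout, among them those of Eln, Loxl1, Mfap4 and Mfap5, and 14 of 278 values turned sign. With array weights Fbln1 was at -0.10. With the mean over all kept probe sets of a gene Fbln1 was at -0.09, Fbln2 at 0.46, Fbln5 at -0.03, Ltbp3 at -0.13, Ctsa at 0.07 and Eln at -0.99; Fbln2 then includes a probe set near background. The median over members was -0.28 there and -0.32 with array weights. Other causes were not tested. When single arrays were left out, the number of members at an unadjusted p under 0.05 was 1 to 3, the median over members -0.30 to -0.09, and the number below 0 was 6 to 8. Ranges that crossed 0 were -0.19 to 0.26 and -0.39 to 0.02 for Fbln1 (1422540_at and 1451119_a_at), -0.05 to 0.10 and -0.22 to 0.04 for Fbln5 (1416164_at and 1446377_at), -0.27 to 0.03 for Lox (1416121_at), -0.31 to 0.01 and -0.82 to 0.06 for Emilin1 (1416414_at and 1431834_a_at), -0.11 to 0.21 for Ltbp3, -0.02 to 0.48 for Hmcn1, -0.43 to 0.02 for Emilin2, -0.42 to 0.02 for Adamtsl3, -0.36 to 0.11 for Cela1 and -0.23 to 0.06 for Tgfb3. No paired analysis was possible because the labels give no replicate numbers shared between the crosses. Dim probe sets, such as the second ones of Eln, Fbln2 and Emilin1, are limited by their signal over background.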
